A study of Rattus norvegicus with 6 samples.

Results

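The genes described here are those of type 2 cytokine signalling: the ligands Il4, Il13 and Tslp, the receptor chains Il4r, Il13ra1 and Il13ra2, the transcription factors Stat6 and Gata3, and the target genes Arg1 and Retnla. They were taken by name, as every row of the linear transcript table whose gene name equals 1 of these 10 genes. 9 of the 10 genes had rows, 23 rows in all among 70376 transcripts of 21655 gene names, and Il13ra2, the decoy receptor for IL-13, was not analysed here. Lung RNA of Sprague-Dawley rats, aged 7 weeks at the start of the study, was compared between 3 control rats, instilled with saline, and 3 pulmonary fibrosis (PF) model rats, which had received bleomycin at 7 mg/kg into the trachea once, with lungs taken on day 28. The study used 20 rats in total, and 1 rRNA-depleted library per rat was sequenced, so each group was lung tissue of 3 animals of a single strain at 1 time point. Values are FPKM, a level scaled for transcript length and library size, and the level of a gene is the plain sum over its rows. The rows of the table held an estimated 35778631 to 41112682 reads per library (coverage times length over the read length of 150 bases), with control and PF model libraries overlapping in depth.

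Interleukin-4 (IL-4) and interleukin-13 (IL-13) are made by type 2 helper T cells and type 2 innate lymphoid cells, whose identity rests on GATA3, and thymic stromal lymphopoietin (TSLP) is an epithelial alarmin that activates both arms. IL-4 binds IL-4Rα paired with the common γ chain, and either cytokine binds IL-4Rα paired with IL-13Rα1. Janus kinases on these chains then phosphorylate STAT6, which enters the nucleus and binds sites of the form TTCNNNNGAA. In macrophages STAT6 is known to induce Arg1, which encodes the enzyme arginase, and Retnla, which encodes a small secreted protein of alternatively activated macrophages. In lung, IL-13 and STAT6 are known for their part in allergic airway inflammation and in fibrosis.

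Stat6 had isoforms with different starts, annotated and assembled, some of which differed in FPKM between the groups. Retnla was the most abundant of these genes, and Il4 the only gene with a match to the STAT6 site. The promoter windows of Stat6, Retnla and Il4 are shown to place the results below. They run from 250 bases before to 50 bases after the RefSeq gene start on the GRCr8 build, 5′ to 3′ on the coding strand. They lie at chr7:65365255-65365554 on the plus strand for Stat6, chr11:65426137-65426436 on the minus strand for Retnla and chr10:38277500-38277799 on the minus strand for Il4. Capitals mark the match to TTCNNNNGAA.
Stat6: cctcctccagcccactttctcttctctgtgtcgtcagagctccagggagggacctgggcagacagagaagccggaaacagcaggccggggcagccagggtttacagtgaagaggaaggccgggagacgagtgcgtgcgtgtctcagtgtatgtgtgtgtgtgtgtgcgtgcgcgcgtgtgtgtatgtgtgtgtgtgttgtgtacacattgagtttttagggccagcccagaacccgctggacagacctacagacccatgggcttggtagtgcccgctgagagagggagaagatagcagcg
Retnla: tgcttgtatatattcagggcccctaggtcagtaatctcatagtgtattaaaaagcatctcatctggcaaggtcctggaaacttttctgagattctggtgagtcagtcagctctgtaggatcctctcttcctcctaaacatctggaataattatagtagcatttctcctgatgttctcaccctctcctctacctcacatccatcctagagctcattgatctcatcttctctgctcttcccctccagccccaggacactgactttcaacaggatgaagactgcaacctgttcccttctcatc
Il4: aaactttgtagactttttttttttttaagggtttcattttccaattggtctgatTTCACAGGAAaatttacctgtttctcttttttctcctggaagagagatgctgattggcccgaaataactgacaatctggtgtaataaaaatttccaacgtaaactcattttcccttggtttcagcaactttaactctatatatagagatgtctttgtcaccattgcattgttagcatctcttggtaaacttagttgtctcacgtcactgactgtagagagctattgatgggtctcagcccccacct
7 of the 10 genes had a window in the RefSeq table, 8 windows in all because Tslp had 2 starts. TTCNNNNGAA reads alike on both strands, and it occurred in 1 of the 8 windows, as TTCACAGGAA 196 bases before the Il4 start, and in 7.275% of 33469 rat promoter windows of the same length. The shorter general STAT form TTCNNNGAA, whose matches could overlap those of the longer form in part, occurred in 0 of the 8 windows and in 8.874% of all. The GATA form GATAA, searched on both strands as GATAA or TTATC, occurred in 0 of the 8 windows and in 26.54% of all. The Stat6 window had 58.67% G and C and 14 CpG dinucleotides and the Retnla window 45.33% and 0, against medians of 51.7% and 7 over all windows. These windows are of another build than the transcript coordinates given below, and which Stat6 transcript begins at the RefSeq start was not determined.

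At the gene level none of the members met the thresholds used here for differential expression, whereas the isoforms of Stat6 differed widely between the groups. Of the 9 genes with rows, 8 had FPKM above 0 in at least 3 of 6 libraries and were tested, and Il4 was not. 0 of the 8 had both an unadjusted p of at most 0.05 and a 2-fold ratio of the group means, against 1.52% of all 19645 gene names tested, and 0 of 8 had an adjusted p under 0.05, against 0.0102% of all (limma on log2(FPKM + 1), Benjamini-Hochberg adjusted over all gene names). By the unadjusted p of at most 0.05 alone, which 4.91% of all gene names met, 1 of the 8 passed, Stat6. The median log2 difference (PF model minus control) of the 8 was 0.04, beside -0.01 over all gene names. In mean FPKM over the 6 libraries the order was Retnla, Stat6, Il13ra1, Il4r, Gata3, Arg1, Tslp, Il13 and Il4, a span from 67.8 FPKM to 0.0257 FPKM. Retnla exceeded Stat6 in 6 of 6 libraries, but Stat6 exceeded Il13ra1 and Il13ra1 exceeded Il4r in 5 of 6 each with overlapping ranges, so those 3 neighbours did not separate. Il4r exceeded Gata3, Gata3 exceeded Arg1 and Arg1 exceeded Tslp in 6 of 6 libraries, while the ranges of Tslp and Il13 and of Il13 and Il4 overlapped.

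**Figure D1:**
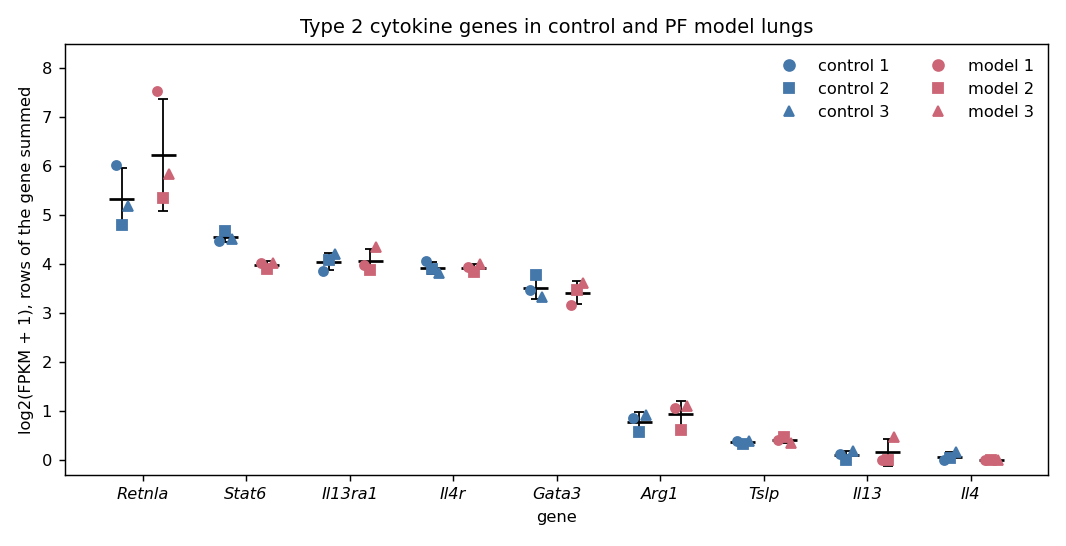
Level of each gene as log2(FPKM + 1), summed over its rows, in the 3 control (blue) and 3 PF model (red) libraries, with black lines for the mean and bars for the SD on that log2 scale. Stat6 is the only tested gene of these whose groups do not overlap, and Il4 and Il13 lie at or near 0.

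The ligand transcripts were at the limit of detection in lung tissue. Il4 (ENSRNOT00000010029, chr10:38963979-38969531, 4 exons) was listed at 0, 0.0255 and 0.129 FPKM in the controls and at 0 in all 3 PF model libraries. These levels stood for at most an estimated 2.99 reads in any library, so that no difference was detectable at this depth. Il13 (ENSRNOT00000010121, chr10:38982909-38985466, 4 exons) was listed at 0.0883, 0 and 0.13 FPKM in the controls and at 0, 0 and 0.391 FPKM in the PF model. PF model 3 was the highest with an estimated 7.97 reads and the other PF model libraries had none, so the groups overlapped (log2 difference 0.06, adjusted p = 0.974, limma). Tslp (ENSRNOT00000091040, chr18:25613831-25617361, 4 exons) was present in every library, at 0.305, 0.252 and 0.302 FPKM in the controls and 0.335, 0.392 and 0.272 FPKM in the PF model. Its groups overlapped, and its mean of 0.286 ± 0.0297 (SD, n = 3) in the controls and 0.333 ± 0.060 (SD, n = 3) in the PF model rested on 4.35 to 6.98 estimated reads per library. In RNA of whole tissue, fewer cells of a type and less RNA per cell cannot be told apart, and this holds for every level given here.

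The receptor chains were expressed in every library and their summed levels differed by less than the spread between rats. Il4r, the chain shared by the IL-4 and IL-13 receptors, had 15.7, 14.0 and 13.1 FPKM in the controls and 14.4, 13.4 and 15.1 FPKM in the PF model. The group means of Il4r were 14.3 ± 1.34 and 14.3 ± 0.856 FPKM (SD, n = 3 each; log2 difference 0.01, SE 0.10, adjusted p = 0.999, limma), and the libraries of the groups were interleaved. Il13ra1, the low-affinity IL-13 receptor chain, had 13.5, 15.9 and 17.6 FPKM in the controls and 14.9, 13.8 and 19.3 FPKM in the PF model. PF model 3 had the highest Il13ra1 level and control 1 the lowest, again with overlapping groups (15.7 ± 2.04 and 16.0 ± 2.90 FPKM, SD, n = 3 each; log2 difference 0.02). Il4r rested on 6695 to 8848 estimated reads per library and Il13ra1 on 755 to 1120.

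Behind these steady sums, the isoforms of both receptor chains were assigned very unevenly within each group. All 5 Il4r rows were assembled isoforms that shared splice junctions with the reference (class j), at chr1:196942239-196971750 over their whole span. The row MSTRG.2933.2 took 38.3%, 12.2% and 6.1% of the Il4r level in the controls and 1.3%, 2.8% and 54.8% in the PF model. MSTRG.2933.1 took 52.5% in control 3 and between 10.8% and 14.8% in each of the other libraries, and MSTRG.2933.3 was listed at 0 in control 3 and PF model 3 but took 16.9% to 31.2% elsewhere. MSTRG.2933.6 (8 exons, 18711 bases) varied less, at 26.8%, 37.0% and 31.6% in the controls and 39.5%, 41.3% and 24.0% in the PF model. Weighted by transcript length, it was the leading Il4r row in every library, at 49.0% to 58.2% in the controls and 46.6% to 61.4% in the PF model. For Il13ra1, the annotated isoform ENSRNOT00000017746 (chrX:122724129-122781479, 11 exons) carried 87.1%, 82.2% and 0.8% in the controls and 76.8%, 0.4% and 73.1% in the PF model. The assembled isoform MSTRG.38903.1, which ends further downstream at position 122804124 and also has 11 exons, took 88.1% in control 3 and 88.5% in PF model 2, the same libraries in which the annotated one nearly vanished. By plain share, the leading isoform of each gene thus differed between rats of the same group. None of the 8 receptor rows passed either threshold (smallest adjusted p = 0.945). Without control 3, MSTRG.38903.1 met the unadjusted p and 2-fold ratio, its log2 difference moving from 0.85 to 2.05 (adjusted p = 0.999995, limma). A single-exon row inside an Il13ra1 intron on the opposite strand, MSTRG.38904.1, contributed 6.2% to 12.9% of the sum, and without it the 2 spliced rows summed to 11.8, 13.9 and 15.6 FPKM in the controls and 13.1, 12.3 and 18.1 FPKM in the PF model. An Il13ra1-like locus, LOC100360218, was at 5.20, 0.841 and 6.44 FPKM in the controls and 10.9, 9.05 and 0.927 FPKM in the PF model, and how reads were divided between it and Il13ra1 is uncertain.

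**Figure D2:**
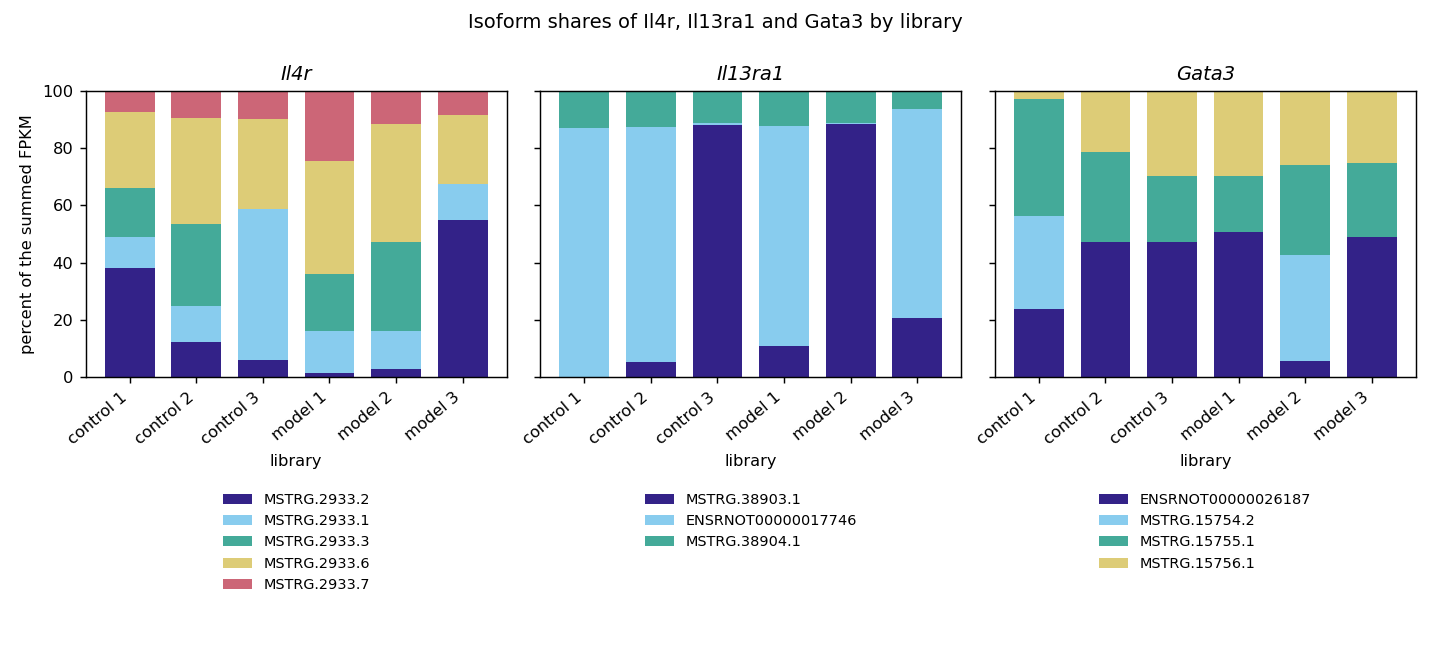
Share of the summed FPKM (percent, y axis) taken by each row of Il4r, Il13ra1 and Gata3 in each of the 6 libraries (x axis), with 1 colour per row within a panel. The leading row changes between libraries of the same group, as for Il13ra1 in control 3 and PF model 2, and the 2 groups overlap.

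Stat6 showed the clearest difference. As a plain sum its level was 21.2, 24.7 and 22.0 FPKM in the controls and 15.3, 13.9 and 15.4 FPKM in the PF model. Every PF model library was below every control library, as in 5.87% of all gene names (10.7% in either direction). The mean was 22.6 ± 1.81 FPKM in the controls and 14.8 ± 0.855 FPKM in the PF model (SD, n = 3 each), a log2 difference of -0.58 (SE 0.09, adjusted p = 0.922, limma), which did not pass the adjusted test. FPKM is already scaled for transcript length, so the plain sum gives short and long isoforms the same weight. Weighting by length multiplies the length back in and gives long rows more weight. The row with the most FPKM had 3515 bases in the controls and 6020 in the PF model. Weighted in this way, Stat6 was 18.1, 20.9 and 18.4 FPKM in the controls and 17.9, 15.8 and 17.5 FPKM in the PF model. The log2 difference was then -0.16 (adjusted p = 0.923, limma), with PF model 1 just under the lowest control. Over its 2 annotated rows alone, by contrast, Stat6 fell by 2.17 on the log2 scale (adjusted p = 0.00351, limma). In estimated reads over the 5 rows the groups overlapped, at 3707, 3933 and 3970 in the controls and 3816, 3072 and 3540 in the PF model (exact permutation test, two-sided, p = 0.2).

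**Figure D3:**
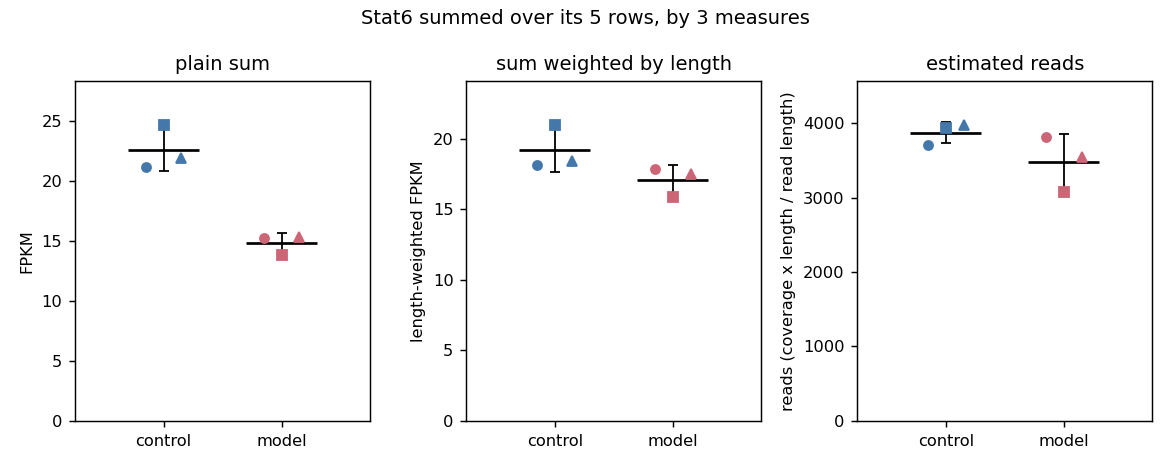
Stat6 summed over its 5 rows in 3 measures, the plain sum of FPKM, the sum weighted by transcript length and the estimated reads, for each control (blue) and PF model (red) library with the mean and SD (n = 3 each), all y axes from 0. The gap seen in the plain sum, 22.6 against 14.8 FPKM, narrows to 19.2 against 17.1 FPKM when rows are weighted by length. The estimated reads, which are not scaled for library size, overlap.

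The 5 Stat6 rows lay on the plus strand of chromosome 7 and differed in start and in length, and in part in the number of exons. Their exon structures were not compared. MSTRG.32697.1 (chr7:70945275-70964472, 20 exons, 6020 bases), MSTRG.32697.2 (chr7:70945593-70964456, 21 exons, 5051 bases) and MSTRG.32697.3 (chr7:70945770-70964484, 20 exons, 4818 bases) were assembled isoforms sharing junctions with the reference. ENSRNOT00000039306 (chr7:70946228-70963542, 22 exons, 2635 bases) and ENSRNOT00000085350 (chr7:70950231-70964484, 21 exons, 3515 bases) were annotated. The first 4 began 4956, 4638, 4461 and 4003 bases upstream of the last. Coordinates are those of the deposited table, whose build is not given in the sources used here.

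The annotated isoform with the latest start, ENSRNOT00000085350, had 17.9, 21.1 and 19.5 FPKM in the controls and 2.48, 2.63 and 2.72 FPKM in the PF model. The isoform with the earliest start, MSTRG.32697.1, had 0.989, 0.897 and 0.772 FPKM in the controls and 8.59, 6.91 and 6.65 FPKM in the PF model. For both, all 3 libraries of a group lay close together and far from the other group. ENSRNOT00000085350 fell by 2.50 on the log2 scale (SE 0.10, adjusted p = 0.00461) and MSTRG.32697.1 rose by 2.15 (SE 0.14, adjusted p = 0.0359, both limma, adjusted over 64867 transcripts). Leaving out any single library other than control 1 took the adjusted p of ENSRNOT00000085350 to between 0.0516 and 0.0882, against 0.0426 without control 1, and leaving out any of the 6 took that of MSTRG.32697.1 to between 0.0859 and 0.199, while the log2 differences stayed between -2.56 and -2.45 and between 2.05 and 2.21.

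The annotated isoform ENSRNOT00000039306 was also higher in the PF model, at 1.03, 0.960 and 0.922 FPKM against 0.152, 0.0940 and 0.0886 FPKM (log2 difference 0.83, adjusted p = 0.107, limma). MSTRG.32697.2 had 0.182, 0.0194 and 0.154 FPKM in the controls and 0.721, 1.14 and 1.74 FPKM in the PF model (log2 difference 0.95, adjusted p = 0.677, limma). MSTRG.32697.3 had 2.04, 2.59 and 1.44 FPKM in the controls and 2.48, 2.23 and 3.35 FPKM in the PF model, and its groups overlapped. In all, 4 of the 5 Stat6 rows met the thresholds of unadjusted p and 2-fold ratio, 3 higher and 1 lower, against 2.98% of all transcripts tested, 1.22% higher and 1.76% lower, and 2 of the 5 passed the adjusted p, against 0.0277%, or 18 of 64867 transcripts. The same 4 rows had groups that did not overlap, against 10.4% of all transcripts, 4.12% higher and 6.29% lower. The rows overlap at 1 locus and divide its reads, so they are not independent of each other. Among the 18 transcripts, 12 carried a gene name, 11 were listed at 0 in every library of 1 group, and Stat6 was the only gene name with 2 of them. None of the 16 other rows of these genes that were tested met the thresholds.

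**Figure D4:**
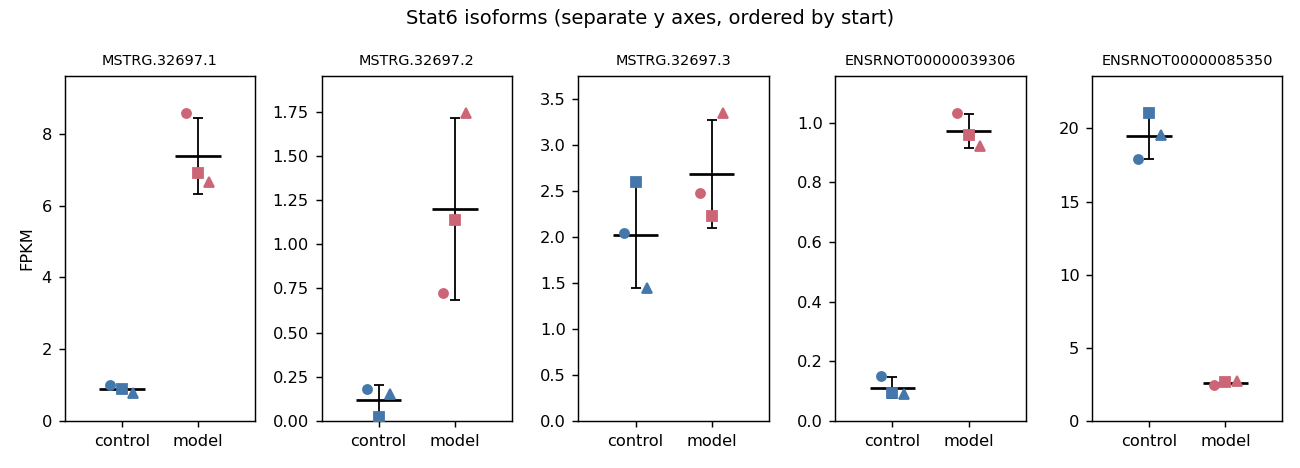
FPKM of the 5 Stat6 rows, ordered by start, in the 3 control (blue) and 3 PF model (red) libraries, with the mean and SD (n = 3 each) and a separate y axis from 0 for each row. ENSRNOT00000085350 drops from 17.9 to 21.1 FPKM in the controls to 2.48 to 2.72 FPKM in the PF model, and MSTRG.32697.1 moves the other way.

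As a share of the Stat6 level, ENSRNOT00000085350 made up 84.2%, 85.4% and 88.8% in the controls and 16.2%, 19.0% and 17.7% in the PF model. The mean share went from 86.1 ± 2.42% to 17.6 ± 1.38% (SD, n = 3 each), a difference of -68.5 percentage points, and of -68.9 points when shares were weighted by transcript length. MSTRG.32697.1 went from 3.93 ± 0.628% to 49.7 ± 6.44%, MSTRG.32697.3 from 8.88 ± 2.07% to 18.0 ± 3.25%, MSTRG.32697.2 from 0.545 ± 0.412% to 8.08 ± 3.31%, and ENSRNOT00000039306 from 0.50 ± 0.187% to 6.56 ± 0.496%. All 5 shares separated the groups, each with an exact two-sided permutation p of 0.1, which is the smallest that 3 against 3 allows. The 5 shares are parts of 1 total, so a fall in 1 raises the others and they are not 5 separate results. MSTRG.32697.3 separated the groups by share although its FPKM overlapped between them. Over the 48168 rows of 10661 gene names with several rows and a mean of at least 1 FPKM, the shares of 9.25% did not overlap between groups. A difference of at least 50 points was found in 0.241% of them, 116 rows of 76 genes, of which 68 rows of 47 genes had groups that did not overlap, and the ENSRNOT00000085350 share ranked 12 by size. Summed over the 4 rows with upstream starts, a grouping made after their values were seen, Stat6 was 3.36, 3.6 and 2.45 FPKM in the controls and 12.8, 11.2 and 12.7 FPKM in the PF model. In estimated reads these 4 rows held 792, 777 and 615 in the controls and 3393, 2665 and 3100 in the PF model, and the row with the latest start held 2915, 3156 and 3355 in the controls and 423, 407 and 439 in the PF model. The 5 rows overlap over most of their span, the assembler divides the reads of shared stretches between them, and levels of single exons were not analysed here.

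**Figure D5:**
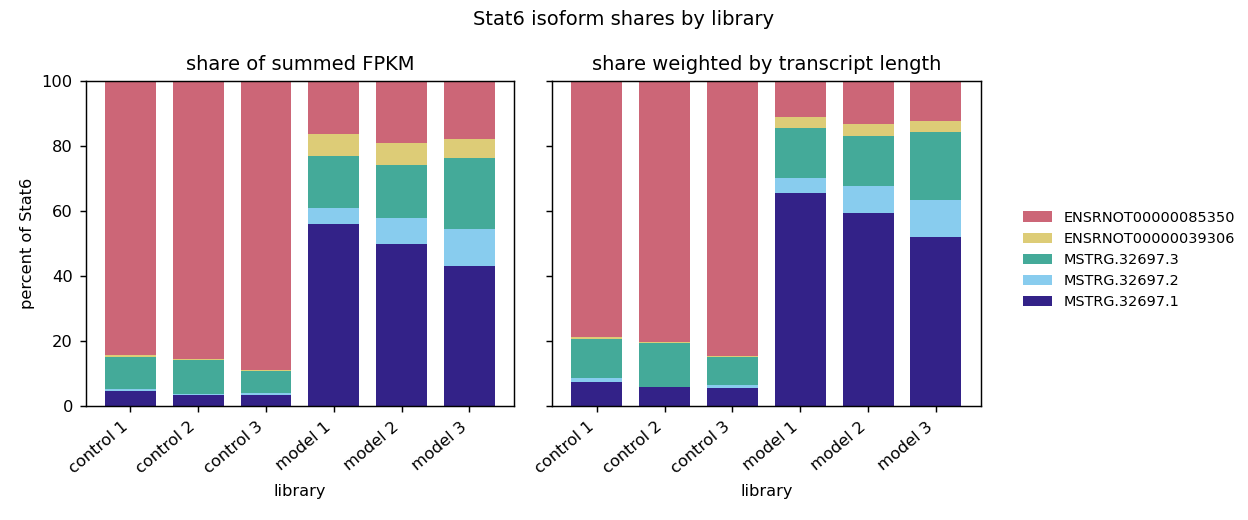
Percent of the Stat6 level (y axis) taken by each of its 5 rows in each library (x axis), as a share of the summed FPKM (left) and weighted by transcript length (right). ENSRNOT00000085350 takes 84.2% to 88.8% of the plain sum in the controls and 16.2% to 19.0% in the PF model, and MSTRG.32697.1 takes most of what remains in the PF model.

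Gata3, the transcription factor of type 2 lymphocytes, had 10.1, 12.7 and 9.02 FPKM in the controls and 7.95, 10.2 and 11.3 FPKM in the PF model. Its groups overlapped (10.6 ± 1.90 and 9.81 ± 1.71 FPKM, SD, n = 3 each; log2 difference -0.10, adjusted p = 0.961, limma). 2 of its 4 rows had a single exon, 1 inside an intron and 1 just past the end of the gene. Without them, the 2 spliced rows summed to 5.68, 6.0 and 4.26 FPKM in the controls and 4.03, 4.33 and 5.55 FPKM in the PF model, again overlapping. The annotated isoform ENSRNOT00000026187 (chr17:72429618-72450681, 6 exons) was the only spliced row above 0 in 4 of the 6 libraries. In control 1 and PF model 2 the assembled isoform MSTRG.15754.2, also of 6 exons, took 32.5% and 37.0% of the level.

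The target genes Arg1 and Retnla had higher means in the PF model with overlapping groups, and neither passed the test. Retnla (main row ENSRNOT00000002676, chr11:54543731-54545230, 3 exons) was 64.0, 26.9 and 35.6 FPKM in the controls and 184.0, 39.9 and 56.2 FPKM in the PF model. PF model 1 stood far above all other libraries, and the other PF model libraries lay within the control range. The means were 42.2 ± 19.4 and 93.4 ± 78.9 FPKM (SD, n = 3 each), a log2 difference of 0.90 (SE 0.60, adjusted p = 0.933, limma), and without PF model 1 the log2 difference was 0.26. Arg1 (ENSRNOT00000017911, chr1:21525421-21537863, 8 exons) was 0.826, 0.490 and 0.893 FPKM in the controls and 1.10, 0.525 and 1.16 FPKM in the PF model. Its groups overlapped, with PF model 2 and control 2 low (0.737 ± 0.216 and 0.931 ± 0.352 FPKM, SD, n = 3 each; log2 difference 0.14, adjusted p = 0.944, limma), and it rested on 31.3 to 80.2 estimated reads per library.

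The rest of the pathway was examined with a list of 59 genes in 6 roles: other type 2 and alarmin ligands, other receptor chains, kinases and adaptors, inhibitors, other transcription factors, and genes known to be induced by IL-4 or IL-13. 53 of them had rows and 51 were tested. 0 of the 51 met the thresholds of unadjusted p and 2-fold ratio, against 1.52% of all gene names, 0 had an unadjusted p of at most 0.05 and the smallest adjusted p was 0.933. Their log2 differences were positive in 28 and negative in 23, with a median of 0.03, and the groups did not overlap in 4 of them, 2 in each direction, against 4.82% higher and 5.87% lower of all gene names. By role, the median log2 difference was 0.15 for the 4 ligands tested, 0.04 for the 8 receptor chains, -0.15 for the 6 kinases and adaptors, -0.12 for the 8 inhibitors, 0.01 for the 8 transcription factors and 0.14 for the 17 induced genes, none of whose members was called.

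Among the direct partners, Il2rg, the common γ chain, was at 12.3 ± 2.17 and 11.9 ± 1.23 FPKM in the control and PF model groups (SD, n = 3 each, here and for the other genes of this paragraph). The kinase Jak1 was at 38.1 ± 0.928 and 36.6 ± 4.59 FPKM, Jak3, which binds the common γ chain, at 4.71 ± 0.421 and 4.42 ± 0.506 FPKM, and Tyk2, which binds IL-13Rα1, at 6.37 ± 0.450 and 6.98 ± 0.387 FPKM. Socs1, an inhibitor of these kinases, was at 2.32 ± 0.350 and 1.80 ± 0.634 FPKM. Il33, the alarmin upstream of type 2 lymphoid cells, was at 36.5 ± 13.1 and 41.4 ± 2.41 FPKM, its receptor Il1rl1 at 4.25 ± 0.562 and 3.97 ± 1.39 FPKM, and Crlf2, the TSLP receptor chain, at 5.40 ± 0.752 and 6.16 ± 0.192 FPKM. All of these pairs overlapped between groups. Il5 and Il7r were not analysed here.

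The 3 pathway genes with the smallest p and a higher level in the PF model were Clec10a, a lectin of macrophages and dendritic cells (3.20 ± 0.268 and 4.18 ± 0.589 FPKM, log2 difference 0.30), Ptpn6, a phosphatase that dampens cytokine signalling (17.0 ± 2.34 and 20.8 ± 2.61 FPKM, log2 difference 0.28), and Mrc1, the macrophage mannose receptor (12.0 ± 2.39 and 15.0 ± 1.58 FPKM, log2 difference 0.31). The 3 with a lower level were Irs1 and Irs2, adaptors of the IL-4 receptor, and Bcl6, a repressor that competes for STAT6 sites. Irs1 was at 23.6 ± 6.86 and 15.3 ± 6.63 FPKM (log2 difference -0.64), Irs2 at 17.1 ± 1.91 and 14.6 ± 1.90 FPKM (log2 difference -0.22), and Bcl6 at 11.9 ± 0.731 and 10.4 ± 1.37 FPKM (log2 difference -0.19). All 6 had an adjusted p of 0.933 (limma), and none passed. The log2 difference of Irs1 was -0.28 without PF model 2 and -0.16 without intronic and run-on rows, and that of Irs2 was -0.13 without control 2, -0.14 without PF model 3 and -0.09 without intronic and run-on rows.

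Markers of the cells that make or answer type 2 cytokines were examined in the same libraries. 30 of 32 markers were tested, and 0 met the thresholds or the adjusted p, which 1.52% and 0.0102% of all gene names met. In 2 of the 30, Kit and Col3a1, the groups did not overlap, both higher in the PF model, against 4.82% higher of all gene names. For sums of markers no such share was computed. The tissue was lung by its defining epithelial genes, with Sftpc between 2410 and 4146 FPKM and Scgb1a1 between 4065 and 7693 FPKM. The 4 eosinophil markers summed to 0.154 to 0.373 FPKM in the controls and 0.156 to 0.439 FPKM in the PF model, with Prg2 at 0 in at least 1 library of each group. The 4 T cell markers summed to 15.6 to 26.8 and 20.1 to 26.5 FPKM and the 4 markers of type 2 innate lymphoid cells to 13.4 to 14.2 and 11.4 to 15.2 FPKM. The 4 mast cell markers summed to 28.6 to 32.0 and 33.7 to 38.0 FPKM, which did not overlap and was mostly Kit (27.7 and 32.5 FPKM on average, adjusted p = 0.933, limma), a gene that other lung cells also express. The other 3 mast cell markers had lower means in the PF model, Cpa3 at 2.56 and 2.47 FPKM, Fcer1a at 0.298 and 0.139 FPKM and Ms4a2 at 0.163 and 0.0656 FPKM, each with overlapping groups. The 4 fibroblast markers summed to 274 to 297 and 302 to 394 FPKM, which also did not overlap, with Col3a1 the largest part. Among them, Col1a2 was at 30.6 and 36.7 FPKM and Pdgfra at 26.1 and 24.9 FPKM on average, each with overlapping groups. The 3 macrophage markers with rows summed to 15.5 to 38.4 and 20.5 to 40.2 FPKM. Cd68 was at 1.30 FPKM in control 3 and 1.21 FPKM in PF model 2, and at 20.7 to 22.8 FPKM in the others. In control 3 and PF model 2 the annotated Il13ra1 isoform had also nearly vanished, and the cause was not tested. Of 6 fibrosis genes, 1 had groups that did not overlap, Col3a1, where 4.82% of all gene names did so in the higher direction and 10.7% in either (169 and 208 FPKM on average, log2 difference 0.30, adjusted p = 0.933, limma), and Col1a1 was between 60.2 and 66.4 FPKM in the controls and between 60.7 and 84.9 FPKM in the PF model. Timp1 had a lower mean in the PF model (8.86 and 7.57 FPKM, log2 difference -0.22), and the log2 differences of the other 5 fibrosis genes were positive. Of these 5, all but Col3a1 had overlapping groups, and Spp1 rested on at most 24.6 estimated reads per library, with 0 in control 2. The part of any of these levels in the Stat6 isoform difference was not tested.

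The genes whose pattern over the 6 libraries was most like that of the summed Stat6 level, among 14319 gene names with a mean of at least 1 FPKM, were Efcc1 (Pearson r 0.99), Dnajc4 (0.98) and Baz1a (0.98), on log2(FPKM + 1), and 34 gene names reached 0.95. With 6 libraries that share a group structure this is a description only. Dnajc4 was at 2.60, 3.22 and 2.50 FPKM in the controls and 0.487, 0.261 and 0.270 FPKM in the PF model, and Efcc1 at 7.92, 8.03 and 7.95 and at 7.40, 7.24 and 7.32 FPKM. Baz1a was listed far higher, at 2386, 3787 and 3066 FPKM in the controls and 705, 227 and 569 FPKM in the PF model.

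None of the 5216 circular RNAs in the deposited back-splice table came from the 10 genes. From the 59 pathway genes there were 5 circular RNAs, of Cdh1, Jak1, Mrc1 and Stat3, with 5 back-splice reads in the control and 2 in the PF model libraries.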

How the data were processed

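Total lung RNA of 3 control and 3 PF model rats was depleted of rRNA before library construction, and read pairs had 150 bases on each side. The authors trimmed reads with Cutadapt, aligned them with Bowtie2 and Tophat2 according to the methods, assembled and merged transcripts with StringTie and computed FPKM with Ballgown. The submitters' processing notes name HISAT2, StringTie and TopHat, and the genome build is not given in the sources used here. The deposited table gives FPKM and coverage per transcript, both made by the authors from StringTie. A second deposited table gives counts of back-splice reads per circular RNA, found with Tophat-fusion and CIRCexplorer, and its normalized columns were not used.

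Gene FPKM was the sum of the rows of a gene name. Genes and transcripts above 0 in at least 3 of 6 samples were compared by limma 3.58.1 with trend in R 4.3.3 on log2(FPKM + 1), two-sided, with Benjamini-Hochberg adjustment over the whole table, and log2 differences are on that scale, which understates changes of low genes. FPKM are not counts, so no count test was used. The thresholds of p at most 0.05 and a 2-fold ratio of mean FPKM are those of the study's methods. The study also states a correction for multiple tests, and the p of this threshold was left unadjusted here. The code was tested on simulated data. Isoform shares were compared with an exact permutation test. Samples were grouped by the labels, and no column was left unmapped. Replicate numbers did not pair the samples, with correlations of 0.06, 0.03 and -0.08 between same-numbered samples. Named were all 10 genes and their rows, pathway genes past both thresholds, the 3 with the smallest p in each direction and 10 direct partners, and for likeness the 3 genes with the highest r. The members and lists were chosen with earlier results of these data known. Rows of unspliced or intronic transcripts were counted with their gene name. Alternatives were another pseudocount, other filters, TPM and median scaling, length weighting, annotated rows only, no trend, the replicate block and leaving out each sample.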

Additional observations from a re-analysis of the deposited data

How the results depend on the processing

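No member reached an adjusted p under 0.05 and a 2-fold ratio except with annotated transcripts only, where Stat6 did (log2 difference -2.17, adjusted p 0.00351), giving 1 member by either threshold, and where 1 pathway gene, Il1rl1, met the unadjusted p and 2-fold ratio, higher in the PF model (0.73 and 2.02 FPKM, log2 difference 0.75, adjusted p = 0.972, limma), against 4.25 and 3.97 FPKM over all its rows. With annotated transcripts only, the log2 difference of Il13ra1 was -0.0196. The samples share only a number, and with the replicate block 1 member, Retnla, met the unadjusted threshold (adjusted p = 0.924, limma), while the Stat6 isoforms kept their differences of -2.50 and 2.15 but had adjusted p of 0.406 and 0.936, 0 transcripts or genes passing an adjusted p of 0.05 in that fit (2595 transcripts and 881 genes had an unadjusted p of at most 0.05). Weighted by transcript length, the share differences were 52.8 points for MSTRG.32697.1, 5.71 for MSTRG.32697.3 and 3.06 for ENSRNOT00000039306, and among annotated rows alone they were 26.6 for ENSRNOT00000039306 and -26.6 for ENSRNOT00000085350. The cause was not tested.

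Leaving out 1 replicate at a time gave log2 differences of -0.0495 to 0.0739 for Il4r, -0.11 to 0.12 for Il13ra1, -0.20 to 0.0272 for Gata3, -1.34 to 0.17 for MSTRG.2933.2, -0.66 to 0.11 for MSTRG.2933.1, -0.66 to 0.76 for MSTRG.2933.3, -1.20 to 1.22 for ENSRNOT00000017746, 0.0296 to 2.05 for MSTRG.38903.1, -0.83 to 0.20 for ENSRNOT00000026187, -0.0387 to 0.72 for MSTRG.15756.1, -0.0273 to 1.07 for MSTRG.7711.1, 2.05 to 2.21 for MSTRG.32697.1 and -2.56 to -2.45 for ENSRNOT00000085350. None of these genes and, of the rows, only those of Stat6 passed a threshold with all samples. Of 121 recomputed values of the 8 tested members, 112 kept direction and side of the adjusted threshold, as did 155 of 181 for the 21 isoforms. Members and rows far from the threshold could hardly change side, so these counts say little about them. Of the isoform values, 13 reversed direction and 13 lost the adjusted threshold. Those that lost it were all of the 2 Stat6 rows that passed with all samples.

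Over the whole table, 18 transcripts at an adjusted p under 0.05 became 36 with a pseudocount of 0.1, 14 with a mean of at least 1 FPKM and 0 to 16 without 1 sample. For gene names, 298 at the unadjusted threshold became 84 with a mean of at least 1 FPKM, 519 with annotated transcripts only and 205 without the trend, and 2 at the adjusted threshold became 1 to 4 without 1 sample, 3 with a pseudocount of 0.1 and 7 with annotated transcripts only. Leaving out intronic and run-on rows was an alternative chosen after seeing the data and moved no member across a threshold. Depth limits Il4, Il13 and Tslp, which rested on under 8 estimated reads per library.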
